A study of Mus musculus with 9 samples.

Results

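The genes described here are 43 mouse genes of the DNA replication machinery, taken from the origin recognition complex to the enzymes that supply deoxynucleotides. They were found by their symbol in the annotation table of a mouse Illumina bead array with 25697 probes. A probe was named for 40 of the 43, and 33 were detected often enough to be tested among 9488 genes in all. RNA was measured in 3 groups of mouse cells, with 1 array per sample. Germ stem cells (GSC) are stem cells of the adult germline, which the labels call unipotent, and they were measured as lines GSC 1 to GSC 4. Germ pluripotent stem cells (gPS) are pluripotent cells that the study's title describes as induced from adult germline stem cells, and they were measured as the clonal, GFP-sorted lines gPS 1 to gPS 3. Embryonic stem cells (ESC) were the pluripotent reference, measured as a duplicate (ESC 1 and ESC 2). Neither strain, animal age, passage nor the transgene behind the GFP sort is given in the sources used here. Each gPS line is a clone, the labels do not say from which GSC line it came, and the ESC duplicate may be technical. The p-values therefore measure only the spread between these samples.

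In each cell cycle the origin recognition complex marks the sites where copying can begin, and Cdc6 and Cdt1 load the ring of the MCM proteins there in an inactive form, a step called licensing that geminin (Gmnn) blocks by binding Cdt1. Kinases, Mcm10, Cdc45 and the GINS complex then turn the ring into a moving helicase, RPA coats the exposed strand, polymerase alpha with primase starts each strand, and polymerases delta and epsilon extend it on the PCNA clamp that replication factor C loads. Fen1 and Lig1 finish the lagging strand, and ribonucleotide reductase, thymidylate synthase, thymidine kinase and dUTPase keep the deoxynucleotides supplied. Many of these genes are transcribed in late G1 and S phase under E2F transcription factors. Pluripotent mouse cells are known for a short G1 phase and a large share of cells in S phase.

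The pluripotency marker genes on the arrays separated the groups in the direction of their labels. The summed signal of 11 pluripotency markers was 3718 to 5085 in GSC, 39058 to 44553 in gPS and 42760 to 42988 in ESC. That of 10 detected germ cell markers was 15626 to 18711, 449 to 1780 and 950 to 1036. In limma's moderated test at an adjusted p under 0.05, 9 of them were lower in gPS than in GSC and 1 was higher. In ESC 8 were lower and 1 was higher. Of all genes, 30.8% were lower and 25.6% higher in gPS, and 29.7% and 24.9% in ESC. Fibroblast and feeder markers, of which 11 were detected, varied among the GSC lines, with a summed signal of 4562 in GSC 1, 1124 in GSC 2, 4288 in GSC 3 and 449 in GSC 4, and stood at 2840 to 3713 in gPS and 2787 to 3381 in ESC. Only 3 of 11 Sertoli and Leydig cell markers were detected, with sums of 409 to 479 in GSC, 120 to 216 in gPS and 144 to 145 in ESC. The part of these other cells in the replication values was not tested. Before normalization the median signal of an array was 83.6 to 101, and between 9871 and 11813 probes were detected per array. Arrays GSC 1 and GSC 3 resembled each other more closely than the ESC duplicate did, with an SD of the difference across genes of 0.21 against 0.34 on the log2 scale, so counts are also given without them.

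Levels are normalized log2 intensities, and a difference of 1 is a 2-fold change. In gPS, 14 of the 33 tested replication genes were higher than in GSC (42.4%), against 25.6% of all 9488 genes, and 4 were lower (12.1%), against 30.8% of all genes. A gene was called at an adjusted p under 0.05 in limma's moderated test, and 56.3% of all genes were called in either direction. Pcna and Dut, counted as higher here and in ESC, were detected often enough to be tested only because of the pluripotent arrays. Their calls are therefore not independent support. All 9488 genes passed the same filter. Rrm2 and Dut, which serve deoxynucleotide supply, rose most, followed by the clamp loader subunit Rfc5, the polymerase alpha subunit Pola2 and the origin subunit Orc5. Rpa2, Cdc45, Pole and Pold1 fell. The median difference over the 33 genes was 0.17, beside -0.07 over all genes. In these bulk samples a smaller or larger share of cells in S phase and a change of RNA per cell cannot be told apart. Scaling each array to its median instead of equalizing the distributions moved the median of all genes from -0.07 to -0.39 and that of the replication genes to -0.10. The counts then became 9 higher and 8 lower, beside 5587 of 9488 genes called, 1539 of them higher. The share of higher genes among all called genes fell from 45.4% to 27.5%. The median of the replication genes stood 0.24 above that of all genes before and 0.29 above it under median scaling. Without GSC 1 and GSC 3 there were 11 higher and 4 lower, a setting for which no share of all genes is given here.

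**Figure D1:**
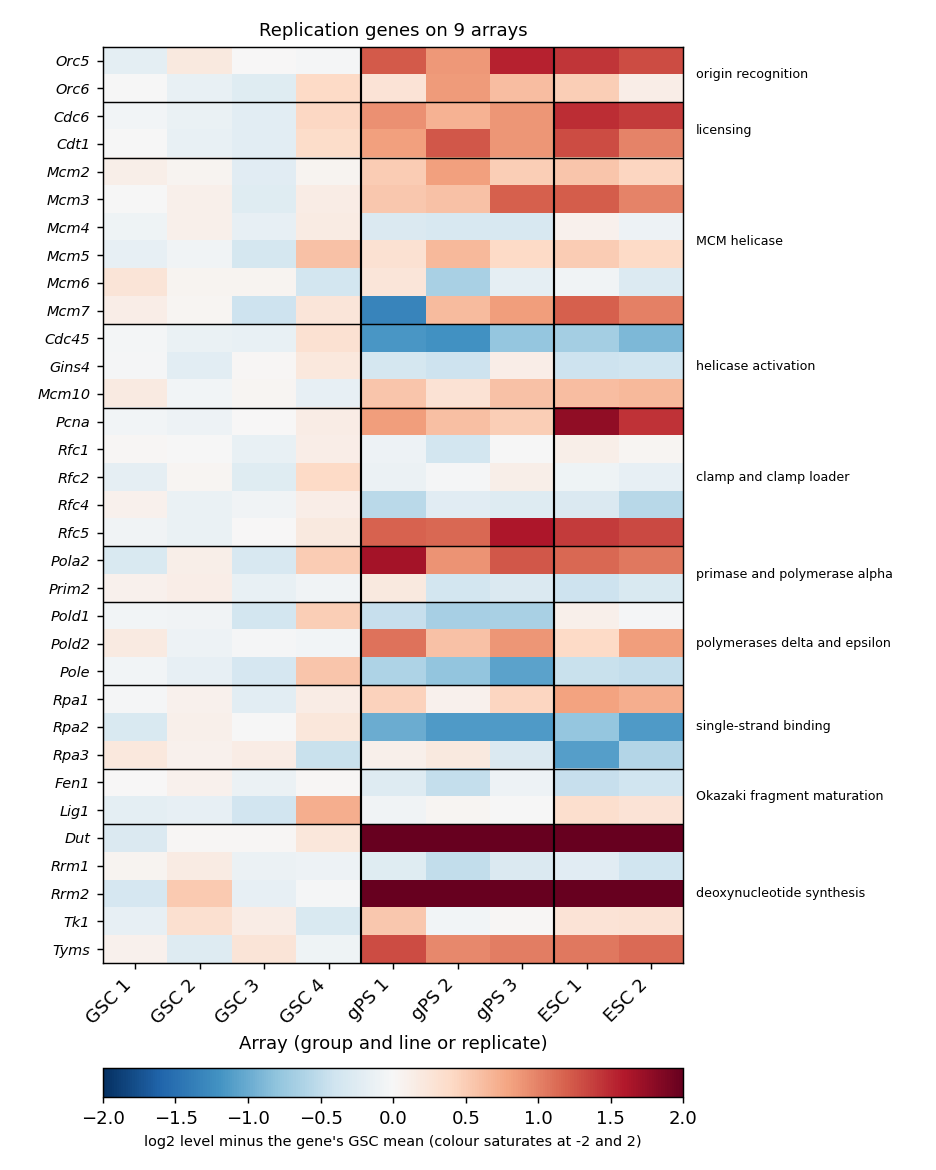
Log2 level of the 33 tested replication genes (rows, grouped by role) on the 9 arrays (columns) minus the gene's mean over the 4 GSC arrays, as colour from blue (lower) to red (higher), with colours saturating at -2 and 2. Rrm2 and Dut are higher on all 5 pluripotent arrays than on any GSC array, Rpa2 and Cdc45 are lower on all 5, and Mcm7 differs among the gPS lines.

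ESC were set against the same GSC arrays, so the comparisons share their controls and are given side by side, not as independent evidence. In ESC, 14 of the 33 genes were higher than in GSC (42.4%, background 24.9%) and 3 were lower (9.09%, background 29.7%), and 54.5% of all genes were called in either direction. The median difference was 0.32 over the replication genes and -0.11 over all genes. Median scaling moved the latter to -0.43 and that of the replication genes to 0.17. There were then 10 higher and 7 lower replication genes, beside 5398 of 9488 genes called, 1483 of them higher. Without GSC 1 and GSC 3, 12 were higher and 2 lower. With the ESC arrays averaged to 1 sample, as for a technical duplicate, Mcm2, Mcm10, Pold2 and Rpa3 lost their calls. No share of all genes is given here for the counts without GSC 1 and GSC 3. The arrays of gPS and GSC did not overlap for 20 of the 33 genes (60.6%, background 55.7%), 13 of them higher in gPS (background 25.1%) and 7 lower (background 30.6%). Those of ESC and GSC did not overlap for 24 (background 69%), 15 of them higher in ESC (background 31.4%) and 9 lower (background 37.6%).

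Promoter windows, from 250 bases before to 50 bases after the annotated start, were available for 35 of the 43 genes from RefSeq (GRCm38.p6). Those of Gins1, Gins2, Gins4, Gmnn, Mcm4, Pole, Prim2 and Rfc2 were not used here. A window was searched on both strands for the E2F motif in the letters TTTCCCGC, TTTGGCGC, TTTGCCGC or TTTCGCGC. Such a match stood in 12 of the 35 genes (34.3%), against 4.87% of the 7127 tested genes with a window and 2.60% of all 27025 genes with one. The 35 include 7 genes that were not tested, so the share of tested genes is not an exact counterpart. The 12 were Cdc6, Cdt1, Lig1, Mcm3, Mcm5, Mcm6, Mcm7, Orc1, Pola1, Pold1, Pole2 and Rfc3. The CCAAT letters of NF-Y stood in 22 (62.9%, against 44.0% of tested genes and 41.1% of all genes with a window). TTTGAA or TTCGAA, the letters of the CHR element, stood in 6 (17.1%, against 16.2% and 21.7%). Of the genes with a window, 3 of 14 that rose in gPS held an E2F match, as did 1 of 3 that fell, 4 of 11 that were not called and 4 of 7 that were not tested. A match is a run of letters and does not show that a factor binds. The windows below are shown because Mcm3, Cdc6 and Cdt1 are the 3 genes with a match that rose, Mcm6 holds the most matches and was not called, and Rrm2 and Cdc45, with no match, rose most and fell. Of the Mcm6 matches, those centred 106 and 102 bases before the start overlap, on opposite strands, and form a single stretch of capitals. Capitals mark the E2F letters, on either strand, and each sequence reads 5′ to 3′ in the direction of the gene.
Mcm3 (chr1:20820263-20820562, minus strand): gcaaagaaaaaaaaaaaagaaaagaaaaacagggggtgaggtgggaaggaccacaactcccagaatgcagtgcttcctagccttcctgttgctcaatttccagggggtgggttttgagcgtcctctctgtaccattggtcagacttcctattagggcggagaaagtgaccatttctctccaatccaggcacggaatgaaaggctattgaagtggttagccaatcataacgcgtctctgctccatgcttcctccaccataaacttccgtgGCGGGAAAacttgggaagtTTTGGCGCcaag
Cdc6 (chr11:98907901-98908200, plus strand): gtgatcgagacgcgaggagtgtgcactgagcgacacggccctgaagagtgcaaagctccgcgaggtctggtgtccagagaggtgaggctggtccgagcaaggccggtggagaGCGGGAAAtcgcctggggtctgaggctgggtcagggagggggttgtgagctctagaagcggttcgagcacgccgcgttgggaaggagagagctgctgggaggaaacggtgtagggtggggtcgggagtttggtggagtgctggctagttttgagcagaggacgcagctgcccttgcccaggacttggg
Cdt1 (chr8:122567765-122568064, plus strand): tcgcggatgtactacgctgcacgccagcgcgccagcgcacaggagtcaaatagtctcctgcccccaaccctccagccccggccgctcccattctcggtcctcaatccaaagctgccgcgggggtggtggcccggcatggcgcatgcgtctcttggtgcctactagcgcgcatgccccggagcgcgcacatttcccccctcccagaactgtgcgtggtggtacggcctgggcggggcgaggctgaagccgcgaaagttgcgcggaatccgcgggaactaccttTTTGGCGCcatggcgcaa
Mcm6 (chr1:128359656-128359955, minus strand): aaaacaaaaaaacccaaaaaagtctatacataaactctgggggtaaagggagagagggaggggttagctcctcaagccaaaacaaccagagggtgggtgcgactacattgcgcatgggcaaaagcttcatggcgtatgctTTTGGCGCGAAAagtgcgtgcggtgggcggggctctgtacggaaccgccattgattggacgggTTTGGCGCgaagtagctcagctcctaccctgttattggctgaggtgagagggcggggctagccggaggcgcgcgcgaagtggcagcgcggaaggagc
Rrm2 (chr12:24708004-24708303, plus strand): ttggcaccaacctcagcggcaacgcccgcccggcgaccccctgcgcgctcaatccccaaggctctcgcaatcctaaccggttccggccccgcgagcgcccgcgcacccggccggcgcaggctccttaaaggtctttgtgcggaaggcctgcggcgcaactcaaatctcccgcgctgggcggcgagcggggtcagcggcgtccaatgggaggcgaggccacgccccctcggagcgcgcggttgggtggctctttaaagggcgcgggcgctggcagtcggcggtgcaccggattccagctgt
Cdc45 (chr16:18811923-18812222, minus strand): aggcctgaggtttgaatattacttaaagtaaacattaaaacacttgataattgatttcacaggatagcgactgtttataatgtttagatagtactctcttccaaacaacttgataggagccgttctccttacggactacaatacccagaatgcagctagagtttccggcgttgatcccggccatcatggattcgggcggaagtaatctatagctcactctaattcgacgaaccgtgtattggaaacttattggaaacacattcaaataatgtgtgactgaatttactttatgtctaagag

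Among the tested origin and licensing genes, Orc5, Orc6, Cdc6 and Cdt1 rose in gPS, and Orc5, Cdc6 and Cdt1 rose in ESC. Orc5, a subunit of the origin recognition complex, stood at 7.74, 8.13, 7.94 and 7.90 in GSC 1 to 4, at 9.16, 8.80 and 9.46 in gPS 1 to 3 and at 9.36 and 9.23 on the ESC arrays. Every pluripotent array lay above every GSC array. The difference was 1.21 (SE 0.18, adjusted p = 0.000256), or 2.31-fold, in gPS and 1.37 (SE 0.21, adjusted p = 0.000292) in ESC. A second Orc5 probe gave 1.24 and 1.19. Orc6, another subunit of the complex, rose by 0.59 in gPS (SE 0.21, adjusted p = 0.0335), but its gPS and GSC arrays overlapped and the call was lost when GSC 1, GSC 2, GSC 3, gPS 2 or gPS 3 was left out, as well as under median scaling (0.49, adjusted p = 0.0588). Its difference in ESC was 0.32 (adjusted p = 0.28). Orc3, a further subunit outside the 43 genes and named after its values were seen, was not called, at 0.23 in gPS (adjusted p = 0.415) and 0.48 in ESC (adjusted p = 0.146). Orc1, Orc2 and Orc4 had named probes that were detected on no array, at levels between 4.20 and 5.07, so no comparison was made. The same held for Gmnn, the inhibitor of licensing, at 4.26 to 4.44.

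Cdc6, the ATPase that loads the helicase, stood at 7.65, 7.58, 7.50 and 8.12 in GSC, at 8.62, 8.40 and 8.60 in gPS and at 9.18 and 9.11 in ESC. The 3 groups did not overlap, with ESC highest and GSC lowest. The difference from GSC was 0.83 in gPS (SE 0.18, adjusted p = 0.00249), or 1.77-fold, and 1.43 in ESC (SE 0.20, adjusted p = 0.000174), or 2.70-fold. Under median scaling the difference in gPS was 0.31 (adjusted p = 0.239) and the call was lost. Its promoter window holds 1 E2F match, centred 134 bases before the start. Cdt1, the partner of Cdc6 in loading, stood at 10.01, 9.88, 9.81 and 10.39 in GSC, at 10.85, 11.26 and 10.90 in gPS and at 11.32 and 11.01 in ESC. Again all pluripotent arrays were above all GSC arrays. The rise was 0.98 in gPS (SE 0.19, adjusted p = 0.00133), or 1.97-fold, and 1.14 in ESC (SE 0.22, adjusted p = 0.00121). Its window holds 1 match, centred 36 bases after the start.

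**Figure D2:**
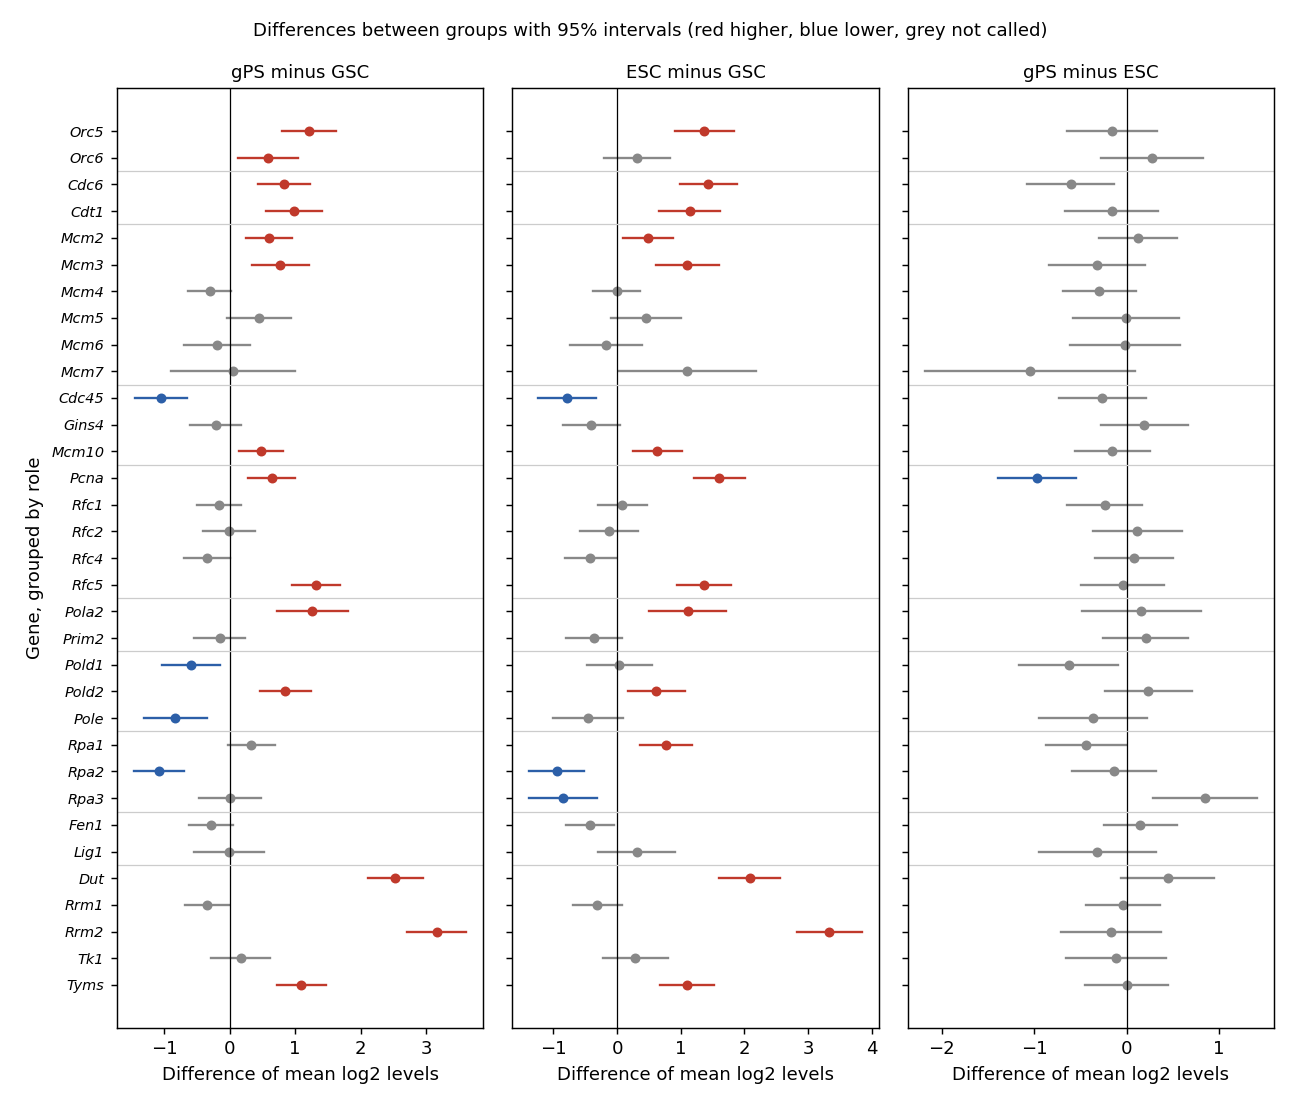
Difference of mean log2 level between groups for the 33 tested replication genes, with 95% intervals from the limma fit. The panels show gPS minus GSC, ESC minus GSC and gPS minus ESC. Against GSC, the estimates run from -1.08 for Rpa2 to 3.16 for Rrm2 in gPS, and from -0.95 to 3.33 for the same genes in ESC.

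All 6 subunits of the MCM ring were tested. In gPS 2 of them were called higher and none lower, beside 25.6% and 30.8% of all genes. Mcm3 stood at 8.94, 9.05, 8.69 and 9.09 in GSC, at 9.48, 9.53 and 10.15 in gPS and at 10.16 and 9.93 in ESC. Its levels did not overlap those of GSC in either pluripotent group, and gPS 3 was close to ESC. The rise was 0.78 in gPS (SE 0.20, adjusted p = 0.00649), or 1.71-fold, and 1.10 in ESC (SE 0.22, adjusted p = 0.00185). The matches in its window are centred 23 and 42 bases after the start. Mcm2 stood at 10.67, 10.62, 10.34 and 10.61 in GSC, at 11.07, 11.38 and 11.06 in gPS and at 11.11 and 10.98 in ESC. It was higher on every pluripotent array, by 0.61 in gPS (SE 0.16, adjusted p = 0.00745) and 0.49 in ESC (SE 0.18, adjusted p = 0.0397), where the call was lost without GSC 1, GSC 2, GSC 3 or either ESC array. With GSC 1 and GSC 3 left out, neither Mcm2 nor Mcm3 was called in gPS. Median scaling ended the call of Mcm3 in gPS (0.38, adjusted p = 0.137) and of Mcm2 in ESC (0.43, adjusted p = 0.075). Mcm5 differed by 0.45 in gPS (adjusted p = 0.102) and 0.46 in ESC (adjusted p = 0.142), and GSC 4, at 11.97, lay within the gPS range of 11.69 to 12.04. Leaving out GSC 4 brought a call for Mcm5 in both comparisons.

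The other 3 MCM subunits differed between lines or between probes. Mcm7, whose window holds E2F matches centred 161 bases before and 20 bases after the start, stood at 8.39, 8.30, 7.85 and 8.51 in GSC, at 6.95, 8.89 and 9.11 in gPS and at 9.45 and 9.28 in ESC. Line gPS 1 was below every GSC line while gPS 2 and gPS 3 were above them. The difference in gPS was 0.05 with an interval from -0.90 to 1.00 (adjusted p = 0.928), and without gPS 1 it was 0.74 (adjusted p = 0.0143). The difference in ESC was 1.10 (adjusted p = 0.0779) with all arrays and 1.10 (adjusted p = 0.0015) without gPS 1, whose distance from its group widened the spread shared by the fit.

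Other probes of Mcm4 and Mcm6, not used for the gene because another probe was brighter, differed among themselves. Mcm4 probe ILMN_2752010 stood at 5.33, 5.38, 5.24 and 6.13 in GSC, at 4.73, 7.02 and 7.35 in gPS and at 7.53 and 7.37 in ESC. Mcm6 probe ILMN_1236125 stood at 4.60, 4.51, 4.47 and 4.62 in GSC, at 4.22, 5.79 and 5.89 in gPS and at 6.17 and 6.20 in ESC. The Mcm4 probe was detected on every array except gPS 1, and the Mcm6 probe only on gPS 2, gPS 3 and the ESC arrays, so the order of its values in GSC and gPS 1 has no meaning. On both probes gPS 2 and gPS 3 were close to ESC and gPS 1 was not above background. The brightest Mcm4 probe, ILMN_2936427, showed no such gap, at 12.05, 12.23, 11.96 and 12.29 in GSC, 11.84, 11.82 and 11.81 in gPS and 12.22 and 12.03 in ESC. Its difference was -0.31 in gPS (adjusted p = 0.102) and -0.01 in ESC (adjusted p = 0.969). Every gPS array lay below every GSC array on it. Mcm4 was called lower in gPS with no background correction, with normexp and an offset of 50, and with no detection filter. The brightest Mcm6 probe, ILMN_2803399, was without a call in the main setting, at -0.19 in gPS (adjusted p = 0.488) and -0.18 in ESC (adjusted p = 0.582). On the other Mcm6 probes gPS 1 was the highest gPS line, with 10.48, 10.20 and 10.23 in gPS 1 to 3 for ILMN_1217331 and 11.02, 10.56 and 10.82 for ILMN_1233857. In a limma fit of all kept probes, ILMN_1217331 was called higher by 0.61 in gPS and 0.82 in ESC. ILMN_1233857 was called higher in ESC (0.52, adjusted p = 0.0413), as was ILMN_1236125, and neither in gPS. ILMN_1236125 passed the detection filter only through pluripotent arrays, so its call as higher in ESC is not independent support. The dimmer Mcm4 probes were called higher in ESC, ILMN_2752009 by 1.55 (adjusted p = 0.0312) and ILMN_2752010 by 1.93 (adjusted p = 0.0164), and not in gPS. ILMN_2752009 stood at 4.47, 6.38 and 6.96 in gPS 1 to 3. The calls for Mcm4 and Mcm6 thus depend on the probe. Averaging the probes of a gene gave 0.38 for Mcm6 in gPS (adjusted p = 0.0377), 0.70 for Mcm6 in ESC (adjusted p = 0.00338) and 1.16 for Mcm4 in ESC (adjusted p = 0.0273). The Mcm6 averages include ILMN_1236125. The probe sequences were not used here, so which transcripts each probe reads was not tested. Of the 11 replication genes with more than 1 detected probe, 9 had the same call on all of them in gPS against GSC and 9 in ESC against GSC. The sign of the difference was the same on all of them for 6 and 7 of the 11.

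**Figure D3:**
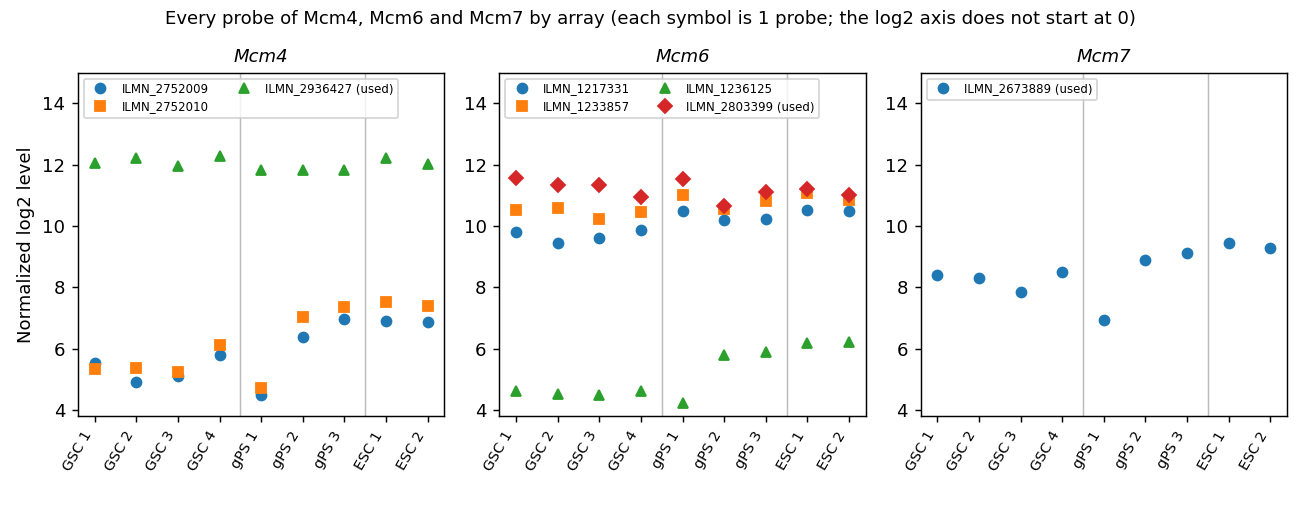
Normalized log2 level (vertical axis, not starting at 0) of every named probe of Mcm4, Mcm6 and Mcm7 on the 9 arrays; each symbol is 1 probe. Line gPS 1 stands at 6.95 for Mcm7 and is not above background for ILMN_2752010 and ILMN_1236125, which is also not above background in GSC, while the other Mcm6 probes and the brightest Mcm4 probe show no such gap.

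Factors that turn the loaded ring into a helicase moved in both directions. Mcm10, which joins the helicase as origins fire, stood at 10.21, 9.98, 10.07 and 9.87 in GSC, at 10.59, 10.32 and 10.61 in gPS and at 10.65 and 10.68 in ESC. The rise was 0.48 in gPS (SE 0.15, adjusted p = 0.0218), or 1.39-fold, and 0.63 in ESC (SE 0.17, adjusted p = 0.0103). The call in gPS was lost when gPS 1 or gPS 3 was left out, and that in ESC without either ESC array. Median scaling ended both calls, with 0.27 in gPS (adjusted p = 0.208) and 0.47 in ESC (adjusted p = 0.0642). Cdc45, the helicase subunit that binds the MCM ring at firing, stood at 9.04, 8.94, 8.92 and 9.37 in GSC, at 7.90, 7.86 and 8.29 in gPS and at 8.39 and 8.17 in ESC. All 5 pluripotent arrays were below all GSC arrays. The fall was 2.07-fold in gPS (-1.05, SE 0.18, adjusted p = 0.000544) and 1.73-fold in ESC (-0.79, SE 0.20, adjusted p = 0.00732), where the call was lost without ESC 2. Gins4, a subunit of GINS, was not called in either comparison, with -0.21 in gPS and -0.40 in ESC (adjusted p = 0.112).

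The clamp and its loader were higher in PCNA and in 1 loader subunit. Pcna, the sliding clamp, stood at 4.59, 4.55, 4.66 and 4.80 in GSC, where no array detected it, at 5.48, 5.25 and 5.15 in gPS and at 6.42 and 6.10 in ESC. Its single probe was dim in all groups, and the order was GSC, gPS, ESC with no overlap. Since the probe was not above background in GSC, its rise is a bound under the main background correction, at least 1.36-fold in gPS and at least 2.66-fold in ESC. Across the alternative settings the log2 difference of Pcna from GSC was 0.21 to 1.42 in gPS and 0.64 to 2.85 in ESC. Pcna passed the detection filter only through gPS and ESC arrays, so its call as higher in those groups is not independent support. Rfc5, a subunit of the clamp loader, stood at 8.73, 8.65, 8.80 and 8.99 in GSC, at 9.98, 9.94 and 10.41 in gPS and at 10.19 and 10.11 in ESC. The gap between the groups was wider than the range within any of them. The rise was 1.32 in gPS (SE 0.17, adjusted p = 7.47e-05), or 2.49-fold, and 1.36 in ESC (SE 0.19, adjusted p = 0.000166). Rfc1, Rfc2 and Rfc4, subunits of the same loader, were not called. The largest of their differences were those of Rfc4, -0.34 in gPS (adjusted p = 0.0916) and -0.42 in ESC (adjusted p = 0.0695). Rfc4 was called lower in both comparisons under median scaling, with no background correction, and with normexp and an offset of 50. In ESC it was also called lower with no detection filter. A dimmer Rfc4 probe gave 0.11 in gPS and -0.10 in ESC, with no call.

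Among the polymerases, subunits of the same enzyme moved apart. Pola2, the regulatory subunit of polymerase alpha, stood at 7.32, 7.74, 7.31 and 8.14 in GSC, at 9.29, 8.52 and 8.87 in gPS and at 8.78 and 8.69 in ESC. It was higher on each pluripotent array, with GSC 4 the nearest of the GSC lines. The rise was 1.26 in gPS (SE 0.24, adjusted p = 0.00121), or 2.40-fold, and 1.11 in ESC (SE 0.28, adjusted p = 0.00611), where the call was lost without ESC 1 and under median scaling (0.57, adjusted p = 0.157). Prim2, the large subunit of primase, was not called, at -0.15 in gPS and -0.36 in ESC (adjusted p = 0.149). A dimmer Prim2 probe gave 0.13 and 0.03, also with no call. Pola1 and Prim1, the catalytic subunits of polymerase alpha and primase, were not tested, with Prim1 detected on 1 array and Pola1 on none.

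Pold1, the catalytic subunit of polymerase delta, stood at 10.61, 10.61, 10.30 and 11.17 in GSC, at 10.21, 10.01 and 10.02 in gPS and at 10.77 and 10.64 in ESC. It was lower in every gPS line than in any other sample. The fall in gPS was 1.51-fold (-0.59, SE 0.20, adjusted p = 0.0283), a call lost when gPS 2 or gPS 3 was left out, and the difference in ESC was 0.04 (adjusted p = 0.905). Pold2, the second subunit of that enzyme, went the other way. It stood at 8.85, 8.57, 8.66 and 8.62 in GSC, at 9.75, 9.27 and 9.56 in gPS and at 9.07 and 9.51 in ESC, and rose by 0.85 in gPS (SE 0.18, adjusted p = 0.00203) and 0.62 in ESC (SE 0.20, adjusted p = 0.0234), where the call was lost without GSC 2 or ESC 2. Under median scaling neither rise was called, at 0.41 in gPS (adjusted p = 0.127) and 0.17 in ESC (adjusted p = 0.574). Pole, the catalytic subunit of polymerase epsilon, stood at 8.06, 7.96, 7.80 and 8.69 in GSC, at 7.51, 7.34 and 7.05 in gPS and at 7.67 and 7.65 in ESC. The gPS lines were lowest and the ESC arrays lay between them and GSC. The fall was 1.77-fold in gPS (-0.83, SE 0.22, adjusted p = 0.00825), and the difference in ESC was -0.46 (adjusted p = 0.139). Pole2, its second subunit, was detected on no array.

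The 3 subunits of RPA, which binds exposed single strands, did not move together. Rpa2 stood at 10.09, 10.49, 10.38 and 10.61 in GSC, at 9.39, 9.27 and 9.27 in gPS and at 9.62 and 9.27 in ESC. Every pluripotent array was lower than every GSC array. The fall was 2.12-fold in gPS (-1.08, SE 0.17, adjusted p = 0.000337) and 1.93-fold in ESC (-0.95, SE 0.20, adjusted p = 0.00198), and a second probe gave -0.97 and -0.94. Rpa1, the large subunit, stood at 11.54, 11.65, 11.36 and 11.71 in GSC, at 12.03, 11.65 and 12.00 in gPS and at 12.38 and 12.29 in ESC. It rose in ESC by 0.77 (SE 0.18, adjusted p = 0.00477), while its difference in gPS was 0.33 (adjusted p = 0.106) and gPS 2 lay inside the GSC range. Without gPS 2, Rpa1 was called in gPS too. Rpa3, the small subunit, was lower in ESC (-0.85, SE 0.24, adjusted p = 0.013), a call lost without ESC 1, and differed by 0.00 in gPS (adjusted p = 0.995).

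Fen1 and Lig1, the nuclease and the ligase that join lagging-strand fragments, were not called in either comparison. Fen1 stood at 10.94, 11.01, 10.82 and 10.96 in GSC, at 10.67, 10.45 and 10.84 in gPS and at 10.47 and 10.54 in ESC. Its groups were within 0.43 of each other, and the differences from GSC were -0.28 in gPS (adjusted p = 0.137) and -0.43 in ESC (adjusted p = 0.0546). The ESC difference was not called in 15 of 24 alternative settings and was called in the other 9, which included those without gPS 2 or gPS 3. Lig1 differed by -0.01 in gPS (adjusted p = 0.974), and GSC 4, at 10.54, was above GSC 1 to 3 at 9.43 to 9.65. Its difference in ESC was 0.31 (adjusted p = 0.36) and was called without GSC 4. The dimmer Lig1 probes gave 0.21, 0.39 and 0.36 in gPS and -0.01, -0.02 and 0.39 in ESC, with no call.

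Deoxynucleotide supply held the largest rises of the 33 genes. Rrm2, the small subunit of ribonucleotide reductase whose level follows S phase, stood at 5.19, 6.04, 5.35 and 5.49 in GSC, at 8.66, 8.62 and 8.76 in gPS and at 8.98 and 8.72 in ESC. The gap between the highest GSC line and the lowest pluripotent array was many times the spread within gPS or ESC. The rise was 3.16 in gPS (SE 0.20, adjusted p = 5.83e-07), or 8.96-fold, and 3.33 in ESC (SE 0.23, adjusted p = 1.35e-06), or 10.1-fold. A second Rrm2 probe gave 3.95 and 4.07. Rrm1, the large subunit of the same enzyme, did not rise, at 9.88, 9.99, 9.70 and 9.74 in GSC, 9.58, 9.34 and 9.53 in gPS and 9.60 and 9.43 in ESC. Its gPS and ESC arrays were all below GSC, with differences of -0.35 (adjusted p = 0.0735) and -0.31 (adjusted p = 0.149) that were not called, and both were called lower under median scaling. In gPS it was also called lower with no background correction, with normexp and an offset of 50, and with no detection filter.

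Dut, the enzyme that removes dUTP, was detected on 1 of the 4 GSC arrays and on all pluripotent arrays. It stood at 4.49, 4.81, 4.81 and 5.01 in GSC, at 7.62, 6.99 and 7.32 in gPS and at 6.95 and 6.78 in ESC. Its GSC levels were near the background, and under the main background correction the rise was at least 5.45-fold in gPS and at least 4.00-fold in ESC. Across the alternative settings the log2 difference of Dut from GSC was 1.25 to 3.78 in gPS and 0.95 to 3.27 in ESC. Dut needed the pluripotent arrays to pass the detection filter, so its call as higher on them is not independent support. Tyms, which makes thymidylate from deoxyuridylate, stood at 9.45, 9.12, 9.62 and 9.28 in GSC, at 10.67, 10.33 and 10.38 in gPS and at 10.43 and 10.50 in ESC. The rise of 1.10 was the same in both groups to 2 decimals (2.14-fold, adjusted p = 0.000295 in gPS and 0.000757 in ESC), and 1 of its dimmer probes was not called in gPS. Tk1, the thymidine kinase of the salvage pathway, was not called, at 0.17 in gPS (adjusted p = 0.497) and 0.28 in ESC (adjusted p = 0.317).

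**Figure D4:**
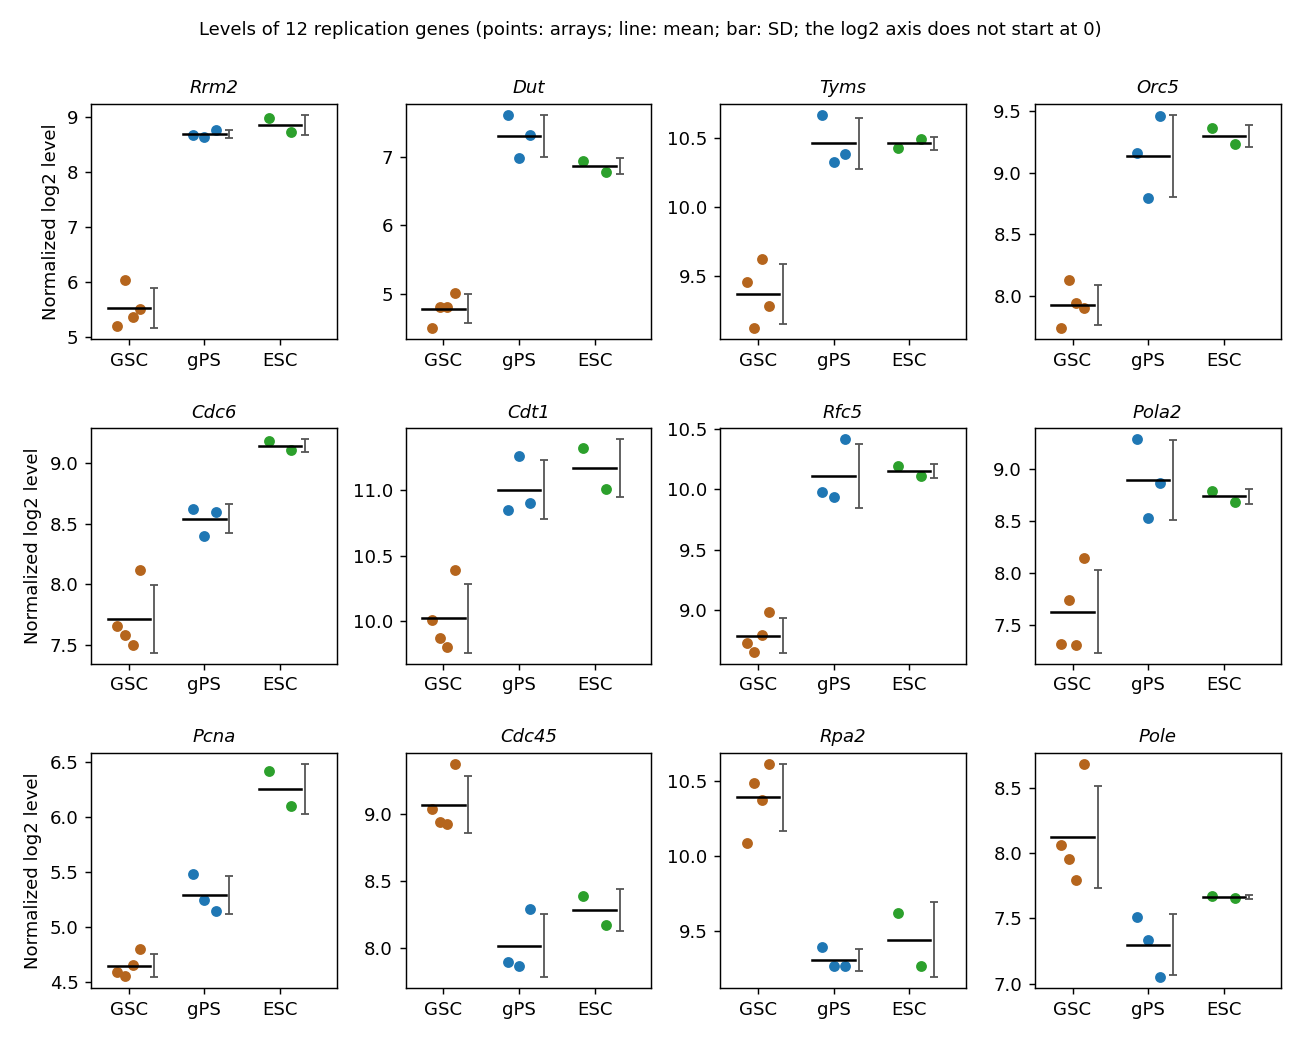
Normalized log2 level per array of 12 of the replication genes, with the mean and SD of each group (GSC n = 4, gPS n = 3, ESC n = 2). Rrm2 lies between 5.19 and 6.04 in GSC and between 8.62 and 8.98 on the pluripotent arrays, and Pcna rises from GSC over gPS to ESC without overlap.

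The pluripotent groups were then compared with each other. Of the 33 genes, only Pcna was called, and it was lower in gPS than in ESC by -0.97 (SE 0.19, interval -1.39 to -0.55, adjusted p = 0.0413), which is 3.03% of the genes beside 1.03% of all genes in either direction and 0.611% lower. The call was made in 6 of 23 alternative settings and missed in 17, among them those without GSC 1, GSC 2, GSC 3, gPS 2, gPS 3 or either ESC array. None was called higher in gPS (background 0.422%) by limma, and at an unadjusted p under 0.05 the counts were 1 higher (background 8.15%) and 4 lower (background 7.37%). The interval of the difference lay within -1 and 1 for 28 of the 33 genes. Mcm7 had the largest difference, -1.05 with an interval from -2.19 to 0.09 (adjusted p = 0.362), and Rpa3 the largest in the other direction, 0.85 from 0.28 to 1.41 (adjusted p = 0.159). Further estimates were -0.63 for Pold1 (adjusted p = 0.248) and -0.60 for Cdc6 (adjusted p = 0.211). The arrays did not overlap for 12 genes (background 32.6%), 10 of them lower in gPS (background 15.8%) and 2 higher (background 16.8%). Of the 33 estimates, 22 were below 0 and 11 above, while 4913 of 9488 were above 0 over all genes. The median difference was -0.11 over the replication genes and 0.02 over all genes.

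The replication genes also varied among arrays of a group. GSC 4 was the highest GSC array for 21 of the 33 genes and GSC 3 was the lowest for 19. The median deviation from the GSC mean was -0.02 in GSC 1, 0.03 in GSC 2, -0.15 in GSC 3 and 0.15 in GSC 4, beside fibroblast marker sums of 4562, 1124, 4288 and 449, whose part was not tested. Among gPS lines, gPS 2 was the lowest for 20 of the 33, and ESC 1 was above ESC 2 for 25. Of the 33 genes, 23 lay above their own group mean in GSC 4, beside 51.2% of all genes, and 10 in GSC 3, beside 47.7%. The same count was 9 in gPS 2, beside 47.0%, and 25 in ESC 1, beside 52.7%. In gPS 1 to 3 the median deviation from the GSC mean was 0.28, 0.19 and 0.39. In ESC 1 and 2 it was 0.40 and 0.30. That of all genes in these pluripotent samples was between -0.07 and -0.11. The median SD within a group was 0.22 in GSC, 0.21 in gPS and 0.09 in ESC, beside 0.22, 0.26 and 0.13 over all genes. The widest spreads were those of Lig1 in GSC (SD 0.49), Mcm7 in gPS (SD 1.19) and Rpa3 in ESC (SD 0.36).

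Other genes of replication, listed with earlier results of these data known, were counted in the same way. Of 32 tested, 7 were higher and 9 lower in gPS, with a median difference of 0.09, beside 25.6% and 30.8% of all genes, and 6 were higher and 7 lower in ESC, beside 24.9% and 29.7%. Cdc7, the kinase that fires origins, stood at 10.41, 10.14, 10.02 and 10.72 in GSC, at 8.90, 9.39 and 9.45 in gPS and at 9.52 and 9.17 in ESC. Dbf4, its activating subunit, stood at 9.72, 9.69, 9.88 and 9.61, at 10.53, 10.43 and 10.30, and at 10.70 and 10.42. The kinase fell by 1.07 in gPS (-1.07, SE 0.22, adjusted p = 0.00155) while its activator rose by 0.69 (SE 0.15, adjusted p = 0.00276), without overlap in either case. Mcmbp, a binding partner of MCM proteins, was lower by 0.77 (-0.77) and Mtbp, needed for firing, was higher by 0.43. At the fork, the helicase Pif1 rose by 1.63 (adjusted p = 4.89e-05) and Pole4, a small subunit of polymerase epsilon, by 1.17. Clspn, which links the fork to the checkpoint kinase, fell by 1.26 (-1.26, adjusted p = 9.24e-05), as did Chtf18 of an alternative clamp loader by 0.56 (-0.56). Among nucleosome assembly genes, Nap1l1 rose by 1.89 and Asf1b and Hat1 fell by 0.74 and 0.61.

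Of 25 other tested genes of nucleotide synthesis, 11 were higher and 5 lower in gPS, beside 25.6% and 30.8% of all genes, with a median difference of 0.54. Dhodh, an enzyme of pyrimidine synthesis, rose by 2.28 (adjusted p = 7.47e-06) and Dtymk, which phosphorylates thymidylate, by 1.94. Samhd1, which degrades deoxynucleotides, fell by 1.66 (-1.66, adjusted p = 4.67e-05) and Cmpk1, a pyrimidine monophosphate kinase, by 1.11 (-1.11). In ESC the list held 12 higher and 6 lower genes, beside 24.9% and 29.7% of all genes, with values of 2.41 for Dhodh and -1.19 for Samhd1.

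Regulators of S phase entry were measured on the same arrays. Of 12 tested E2F and pocket protein genes, 2 rose and 3 fell in gPS, with a median difference of -0.07. Of all genes 25.6% were higher and 30.8% lower, which is the background for the counts of this and the next lists. Mybl2, an E2F target that encodes a transcription factor, rose by 2.44 (SE 0.28, adjusted p = 3e-05), and E2f4, usually a repressor, by 2.21. E2f6, a repressor, fell by 1.73 (-1.73) and Rb1, the retinoblastoma protein that holds E2F in check, by 1.45 (-1.45, adjusted p = 0.000208). The third gene that fell was E2f1, an activator named here after its values were seen, at -0.78 (adjusted p = 0.0105). Of 8 tested cyclins, kinases and inhibitors of S phase, 2 rose and 1 fell. Ccne1, cyclin E1, stood at 5.84, 5.77, 5.75 and 5.75 in GSC, at 10.20, 9.55 and 10.24 in gPS and at 10.04 and 9.98 in ESC, a rise of 4.22 (SE 0.18, adjusted p = 3.75e-08). Cdc25a, a phosphatase that activates cyclin-dependent kinases, rose by 0.81, and Cdkn2a, an inhibitor locus, fell by 2.99 (-2.99). For reference, 8 of 14 tested mitosis genes were higher and 1 was lower in gPS, with a median of 0.66. They included Plk1 at 1.66, Birc5 at 1.37 and Cenpa at -0.52.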

How the data were processed

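RNA of 4 GSC lines, 3 gPS lines and an ESC duplicate was read on 9 Illumina arrays. Per the labels' protocols, biotin-labelled cRNA was made from total RNA. The deposited intensity per probe and array was summarised by the authors with no normalization between arrays, with BeadStudio 3.2, RMA and lumi named in the submitters' processing notes. A detection p-value accompanies each intensity, per the file headers. The authors' processed log2 values share the same quantiles on all arrays. Base 2 was inferred from their maximum, as none is stated.

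Background correction, quantile normalization and the log2 step were done by neqc (limma 3.58.1, R 4.3.3, offset 16), which took its negative controls from the detection p-values. A probe was kept when its detection p was under 0.01 on 2 or more of 9 arrays (12695 of 25697), and the brightest kept probe stood for its gene (9488 genes, 738 without a symbol). Of the probes, 23978 have 1 symbol in the platform annotation, 0 have several and 1719 are unnamed. Group means were fitted with limma over all genes and arrays in 1 model, and p-values were adjusted over all genes (Benjamini-Hochberg, threshold 0.05). Intervals are 95% intervals of the limma fit. A gene not above background on the GSC arrays has a bound in place of a fold change, with a dim array set to the higher of its own value and the lowest level among probes above background. The bound holds only for this background correction and offset. Precision is limited by the number of arrays. The replication genes, the further lists and the markers were chosen with earlier results of these data known. Given in full are, per role, the largest called rise and fall in gPS (or the brightest gene where none was called), genes called between gPS and ESC, and Mcm2, Pcna, Orc1, Cdc6, Cdt1, Gmnn and Rrm2. From each further list the 2 largest called rises and falls are named. Gins1, Gins2 and Rfc3 have no named probe and were not analysed here. The alternatives cover background correction, the authors' values, scaling, filters, probes, fits and arrays left out.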

Additional observations from a re-analysis of the deposited data

How the results depend on the processing

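In gPS against GSC, 8 of the 14 replication genes that rose and 3 of the 4 that fell were called under each alternative in which they were tested, other than a 2-fold minimum, as were 10 of 14 and 1 of 3 in ESC against GSC. Pcna and Dut, among both the 8 and the 10, were not tested when detection on all 9 arrays was required. The counts of higher genes in gPS moved from 14 to 9 under median scaling and to 6 at a 2-fold minimum. Lower genes in gPS moved from 4 to 8 with no background correction, to 7 with normexp and an offset of 50, to 8 under median scaling and to 2 at a 2-fold minimum. Lower genes in ESC moved from 3 to 5 with no background correction, to 5 with that normexp, to 7 under median scaling, to 5 with no detection filter, where 40 replication genes were tested, and to 0 at a 2-fold minimum. The 1 gene lower in gPS than in ESC, Pcna, became 0 with no background correction, with normexp, with the authors' values, under median scaling, when detection on all 9 arrays was required (which leaves Pcna out of the test), with only the compared groups, with an intensity trend, with the ESC arrays averaged, with GSC 1 and GSC 3 averaged or left out, and at a 2-fold minimum. Leaving out each array in turn gave 12 to 15 higher and 3 to 4 lower genes in gPS, 11 to 16 and 2 to 4 in ESC, and 0 to 0 higher and 0 to 1 lower in gPS against ESC. Shares of all genes are not given for each of these settings, so the counts show only how these calls depend on the setting. Averaging the probes of a gene reversed the estimates of Mcm6 in gPS (0.38), Mcm4 in ESC (1.16) and Mcm6 in ESC (0.70), since their probes differ. Otherwise the cause was not tested. Whether line numbers pair the samples could not be decided. The deviations of same-numbered arrays correlated between -0.17 and 0.08, but no differently numbered arrays were set beside them and the groups are small. The replicate block gave 14 higher and 3 lower genes in gPS, 13 and 3 in ESC, and 0 and 0 in gPS against ESC. Dim probes such as those of Pcna and Dut limit what can be said of GSC.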
